A study of Homo sapiens with 30 samples.

Results

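The numbered zinc finger genes are those whose platform symbol is ZNF followed only by digits. Of 212 such genes on the array, 126 were kept, chosen by their mean log2 value over the 30 arrays: that of the gene's brightest probe set had to lie above 7.18. The other 86 lay at or below it, and 11963 genes were compared in all. Brightness was used only to choose the genes, so it is given as a description and not tested. ZNF79 (7.27), ZNF136 (7.36) and ZNF230 (7.36) lay just above the limit, and ZNF426 (7.14), ZNF365 (7.12) and ZNF276 (7.07) just below it.

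The values come from Affymetrix arrays of human small airway epithelial (SAE) cells, commercially supplied cells of the narrow branches of the airway. Cultures received multi-walled carbon nanotubes (MWCNT), hollow fibres of rolled carbon, or titanium dioxide nanobelts (TiO2-NB, here TiO2), flat mineral ribbons. Each particle was used at 10 and 100 ug/ml, for 24 h and for 1 h, and cultures with no particle (0 ug/ml) were kept for both times. That makes 10 groups of 3 arrays, which the labels call biological replicates, and the number of donors is not stated in them. All groups received the same supplemented small airway growth medium, and the controls differ from the others in having no particle. Of 9 airway epithelial markers 6 lay above 7.18, from KRT18 (12.92) and KRT8 (11.67) down to KRT5 (7.24). EPCAM (6.90), KRT19 (5.89) and KRT14 (3.94) lay below it. Of 19 markers of immune, fibroblast, endothelial, alveolar and ciliated cells 4 lay above 7.18 (CD14, COL1A1, PDGFRB and SFTPC), the highest at 8.02. All 4 lay above KRT5.

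Most ZNF proteins carry a row of zinc fingers, short loops held by cysteines and histidines around a zinc ion, each of which reads a few bases of DNA. Many also carry a KRAB domain, which recruits TRIM28 (KAP1) and with it the methyltransferase SETDB1, heterochromatin proteins and DNA methyltransferases, and so silences the bound DNA, often a transposable element. The KRAB members arose by repeated duplication, and many sit side by side on chromosome 19. The symbol is a mixed one. ZNF185 is an actin-binding protein with a LIM domain, ZNF593 takes part in ribosome assembly, and ZNF451 is a SUMO ligase.

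Of the 126 genes, 50 (39.7%) lie on chromosome 19, against 6.78% of all genes compared, and chromosomes 16, 7 and 8 hold 10, 9 and 7. The brightest were ZNF207 (11.46), a microtubule-binding protein of the mitotic spindle, ZNF706 (11.36), ZNF146 (11.05), a protein made almost only of fingers, and ZNF185 (10.94). ZNF593 (10.42), ZNF217 (10.21), a corepressor amplified in breast tumours, ZNF106 (10.09), an RNA-binding protein, and ZNF24 (10.04), a repressor with a SCAN domain, came next. The median member had a mean of 8.27, against 7.88 for all genes and 9.42 for all genes above 7.18. The median SD within groups was 0.0972 in the members, 0.102 in all genes and 0.0754 in all genes above 7.18. It was largest in ZNF91 (0.33), ZNF12 (0.33), ZNF24 (0.22), ZNF430 (0.21) and ZNF148 (0.20). Probe sets matching several transcripts are common in such a family: 72 of the 126 tested sets are of the plain kind, 38 of the kind that can match several transcripts of a family and 16 of the kind that can match unrelated ones too, so a value may hold signal from a close relative.

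The start regions of 4 genes named in the results are shown. ZNF281 and ZNF12 were higher 1 h after contact with particles, and ZNF227 rose with time and was lower with TiO2. ZNF606 had the largest rise between 1 and 24 h without particles. It passed the limit on the mean only through the 24 h arrays, so that rise is bound up with how it was chosen. Sequences are from RefSeq (GRCh38.p14), run 5′ to 3′ along the gene's strand over 300 bases, and 112 of the 126 genes matched the promoter table. They are chr1:200409987-200410286 (minus strand), chr7:6706898-6707197 (minus), chr19:58002771-58003070 (minus) and chr19:44212282-44212581 (plus). Capitals mark matches, on either strand, to any of 9 motifs. The Sp1 letters searched were GGGCGG. Those of NRF1, a factor of housekeeping promoters, were GCATGCGC. For ZNF143 they were ACTACAA and for YY1, a factor bound near start sites, AAGATGG. The cyclic AMP response element (CRE) was TGACGTCA. AP-1, the Fos and Jun dimer, had TGANTCA. EGR had GCGTGGGCG, the TATA box TATAAA, and Kaiso its palindrome.
ZNF281: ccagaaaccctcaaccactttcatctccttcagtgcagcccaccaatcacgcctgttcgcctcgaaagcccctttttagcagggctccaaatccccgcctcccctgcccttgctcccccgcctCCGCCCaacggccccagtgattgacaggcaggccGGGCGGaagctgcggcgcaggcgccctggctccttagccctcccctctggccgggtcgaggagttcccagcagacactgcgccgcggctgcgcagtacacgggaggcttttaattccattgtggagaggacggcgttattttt
ZNF12: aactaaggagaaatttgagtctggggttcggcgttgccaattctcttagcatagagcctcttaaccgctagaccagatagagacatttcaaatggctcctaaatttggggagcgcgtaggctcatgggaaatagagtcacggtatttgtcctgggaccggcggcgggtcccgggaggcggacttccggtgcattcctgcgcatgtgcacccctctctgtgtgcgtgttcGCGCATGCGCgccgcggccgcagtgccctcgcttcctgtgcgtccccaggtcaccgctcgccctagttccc
ZNF606: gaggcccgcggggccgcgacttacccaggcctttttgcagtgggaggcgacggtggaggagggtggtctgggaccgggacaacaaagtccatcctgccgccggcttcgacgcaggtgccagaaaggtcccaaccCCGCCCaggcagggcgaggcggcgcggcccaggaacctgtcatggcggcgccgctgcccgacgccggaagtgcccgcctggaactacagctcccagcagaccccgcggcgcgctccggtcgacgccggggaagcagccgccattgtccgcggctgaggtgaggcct
ZNF227: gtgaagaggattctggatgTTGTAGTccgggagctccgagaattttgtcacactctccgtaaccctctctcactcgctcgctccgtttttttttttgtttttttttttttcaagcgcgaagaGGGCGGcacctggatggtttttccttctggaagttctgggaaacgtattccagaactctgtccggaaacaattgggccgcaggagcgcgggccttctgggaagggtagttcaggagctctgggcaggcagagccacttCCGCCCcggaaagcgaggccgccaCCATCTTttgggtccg

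ZNF281 and ZNF606 hold matches to the Sp1 letters only. ZNF12 holds 2 overlapping NRF1 matches. ZNF227 holds Sp1 matches, 1 ZNF143 match far upstream and 1 YY1 match after the start. Across the family the ZNF143 letters stood in 10.7% of 112 promoters, against 3.08% of the 9563 promoters of compared genes, and the CRE letters in 6.25% against 2.99%. ZNF143, itself a member, is an activator that binds such letters near start sites. Sp1 (58.9% against 60.8%), NRF1 (4.46% against 4.13%), YY1 (8.04% against 7.24%) and EGR (1.79% against 1.16%) letters were about as common in both, AP-1 (3.57% against 5.8%) and TATA (3.57% against 8.97%) letters less so in the family, and Kaiso letters stood in 0 against 0.69%. These shares are descriptions of the letters in the windows, and the median GC content was 61.3% in the family and 63.7% in the compared genes.

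**Figure D1:**
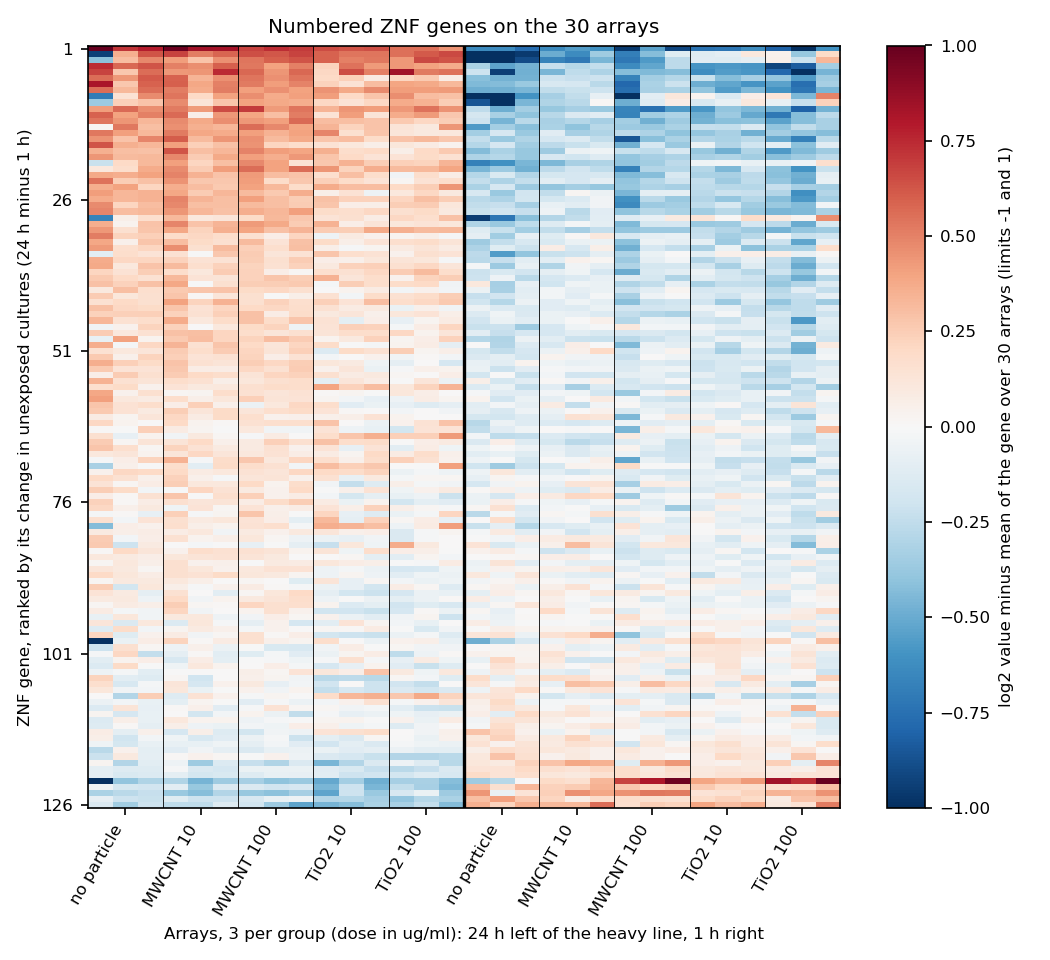
Log2 value of each of the 126 ZNF genes (rows) on each of the 30 arrays (columns, 3 per group) minus the gene's own mean, with colours limited to values from -1 to 1. The 24 h arrays stand left of the heavy line and the 1 h arrays right of it, and rows are ranked by the change in unexposed cultures, 24 h minus 1 h. Most rows are red at 24 h and blue at 1 h, a smaller set at the bottom is the reverse, and the first unexposed array at 24 h has several rows far below the others.

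The largest change in the family was with time in culture. Between 1 and 24 h without particles, 67 of the 126 genes rose (53.2%) and 11 fell (8.73%), where 19.3% of all genes compared rose and 12.4% fell (31.7% in either direction). Of the 6922 genes above the same limit on brightness, 1932 rose (27.9%) and 1133 fell (16.4%). The median change was 0.23 in the family, −0.01 in all genes and 0.04 in the bright ones, all on the log2 scale. 5 of the 126 (ZNF606, ZNF623, ZNF250, ZNF230 and ZNF79) had a mean at or below 7.18 over the 1 h arrays and passed the limit only through the 24 h arrays, so their rise is bound up with how they were chosen. Without them 62 of 121 rose (51.2%), with a median of 0.20. The 86 dimmer ZNF genes also rose more often than they fell (35 and 4). Changes are differences of log2 group means with the SE of a limma fit of all 10 groups, and "rose" or "fell" means an adjusted p under 0.05 (Benjamini-Hochberg, all genes). A change of 1 is a factor of 2, and an exact permutation test of 3 arrays against 3 could not give a two-sided p under 0.10.

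ZNF606, a KRAB protein, read 8.91, 8.58 and 8.65 in the unexposed cultures at 24 h, against 7.23, 7.23 and 7.10 at 1 h. The rise was 1.52 ± 0.10 (SE), or 2.87-fold. ZNF606 passed the brightness limit only through the 24 h arrays (mean 8.58, against 7.14 at 1 h), so its rise is given as a description. ZNF184, also a KRAB protein, read 8.99, 8.82 and 8.88 at 24 h, against 7.93, 7.72 and 7.78 at 1 h. All 3 later arrays were higher, by 1.09 ± 0.11 on average. ZNF227 read 8.20, 8.08 and 8.26 at 24 h, against 7.22, 7.17 and 7.17 at 1 h. That is a rise of 0.99 ± 0.08 (limma adjusted p = 1.11e-09). ZNF302, ZNF112, ZNF250 and ZNF230 rose by 0.95 ± 0.09, 0.97 ± 0.12, 0.85 ± 0.08 and 0.80 ± 0.12. ZNF623 rose by 1.04 ± 0.15. The times did not overlap in any of these genes, but such separation was common between the unexposed groups. All 24 h arrays lay above all 1 h arrays in 64 members and 21.1% of all genes, and below in 11 members and 16.4%. ZNF250, ZNF230 and ZNF623 also passed the brightness limit only through the 24 h arrays, so their rises are given as descriptions.

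Among the largest risers ZNF12, ZNF148, ZNF430 and ZNF91 had 1 low array at 24 h. ZNF12, a KRAB protein, read 7.26, 8.55 and 8.83 at 24 h, against 6.56, 6.52 and 7.23 at 1 h. Replicate 1 of the 24 h group lay far below the other 2 and just above the highest 1 h array. The rise was 1.44 ± 0.25, and 1.91 without that replicate. ZNF148, which binds GC-rich promoters, read 7.61, 8.32 and 8.49 at 24 h, against 6.83, 7.01 and 7.12 at 1 h, a rise of 1.15 ± 0.15. ZNF430 rose by 0.85 ± 0.16. ZNF91, which silences SVA retrotransposons, read 7.91, 8.75 and 9.08 at 24 h, against 7.53, 7.58 and 8.01 at 1 h. Its groups overlapped, and its rise of 0.87 ± 0.25 (limma adjusted p = 0.00895) lost its call without replicate 3 of the 24 h controls, where it was 0.62, and in the fit on these 6 arrays alone. The same replicate 1 had the highest 3′ minus 5′ difference of ACTB of all arrays (0.86, against 0.40 to 0.61 in the other 24 h arrays) and, of the 24 h arrays, the lowest Alu control signal (14.18, against 14.34 to 14.52). Without it, 71 of the 126 genes still passed between the times.

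Other members that rose, chosen here for their roles after their values were seen, were ZNF143 (0.35 ± 0.08), ZNF451 (0.62 ± 0.09), ZNF638 (0.49 ± 0.10), an RNA-binding protein, and ZNF473 (0.35 ± 0.05), which acts in the processing of histone transcripts. Of the 12 genes with ZNF143 letters in the promoter window, 9 rose, 0 fell and 3 did not pass, beside 67 of 126 that rose in the whole family (53.2%). Of the 7 with CRE letters, 4 rose (ZNF143, ZNF200, ZNF330 and ZNF562) and ZNF593 fell, a share of risers near that of the family.

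**Figure D2:**
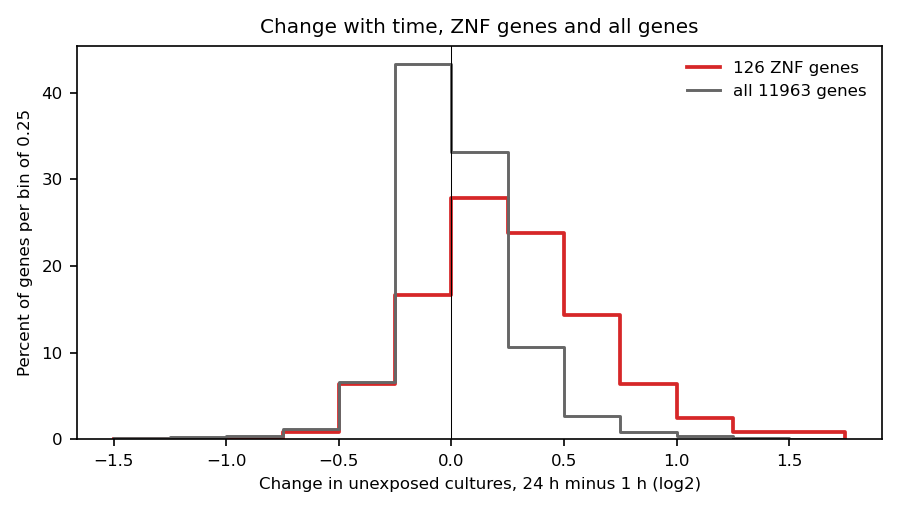
Share of genes (percent, vertical axis) by change in unexposed cultures, 24 h minus 1 h (log2, horizontal axis, bins of 0.25), for the 126 ZNF genes (red) and all 11963 genes (grey). The ZNF genes lie to the right of all genes, with medians of 0.23 and −0.01. The axis runs from −1.5 to 2, and the few genes beyond it are not drawn.

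All 11 members that fell with time in the unexposed cultures are named, outside the naming rule. ZNF394, with SCAN and KRAB domains, read 7.51, 7.30 and 7.44 at 24 h, against 7.9995, 7.87 and 7.996 at 1 h. It fell by 0.54 on the log2 scale (SE 0.09). ZNF593 read 10.34, 10.22 and 10.20 at 24 h, against 10.72, 10.83 and 10.69 at 1 h. It fell by 0.50 (SE 0.06, limma adjusted p = 1.89e-07). ZNF217 fell by 0.45, ZNF35 by 0.41, ZNF281 by 0.36, ZNF706 by 0.29, ZNF274 by 0.28, ZNF787 by 0.25, ZNF207 by 0.24, ZNF22 by 0.21 and ZNF783 by 0.20. Of these 11 only ZNF281 overlapped between the times. Its fall was 0.13 without replicate 1 of the 24 h controls and did not pass (limma adjusted p = 0.353), nor did it without replicate 3 of the 1 h controls (limma adjusted p = 0.175). ZNF787 did not pass without the same replicate 1 (limma adjusted p = 0.0598), and ZNF207 fell by 0.15 there and still passed. ZNF783 did not pass without replicate 2 of either time, and its difference was −0.13 without that of 24 h. ZNF274 is a KRAB protein that recruits SETDB1 to the 3′ ends of other ZNF genes. Of the 8 brightest members ZNF207, ZNF706, ZNF593 and ZNF217 fell, ZNF106 rose (0.26 ± 0.05), and ZNF146, ZNF185 and ZNF24 did not pass (0.06, 0.11 and −0.03).

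The same contrast can be read in each exposed condition, each with its own 6 arrays, which was added after the unexposed result was known. With MWCNT at 10 ug/ml 57 genes rose and 11 fell (all genes 16% and 9.83%). With MWCNT at 100 ug/ml 75 rose and 9 fell (18.8% and 9.55%). With TiO2 at 10 ug/ml 56 rose and 14 fell (14.5% and 13.1%), and at 100 ug/ml 57 rose and 12 fell (17.8% and 14.8%). In all 5 conditions, 41 members rose (32.5%, against 7.9% of all genes), or 36 of 121 (29.8%) without the 5 that passed the limit through the 24 h arrays, and 8 fell (6.35%, against 5.82%). No member passed in opposite directions, 25 passed in none, and 81 had a positive change in all 5. ZNF606, which passed the limit only through the 24 h arrays, rose by 1.34 to 1.52 over the 5 conditions. The 8 that fell in every condition were ZNF394, ZNF593, ZNF217, ZNF35, ZNF706, ZNF274, ZNF207 and ZNF281. The unexposed call of ZNF281 was lost when 1 control array of either time, as named above, was left out.

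Per array, the median deviation of the 126 genes from their own means was 0.0198 to 0.207 on the 15 arrays at 24 h, against −0.210 to −0.0432 on the 15 at 1 h. No 24 h array reached down to a 1 h array. The 126 include the 5 genes that passed the limit only through the 24 h arrays. The median value of all genes was 7.86 to 7.96 at 24 h and 7.83 to 7.88 at 1 h, ranges that overlapped. RNA measures also moved with time: the ACTB 3′ minus 5′ difference was 0.40 to 0.86 at 24 h and 0.23 to 0.53 at 1 h, while that of GAPDH was 0.0303 to 0.108 and 0.0342 to 0.106. Their part in the result was not tested. Whether the times were processed as separate batches is not given in the sources used here, and such a batch and time cannot be told apart.

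**Figure D3:**
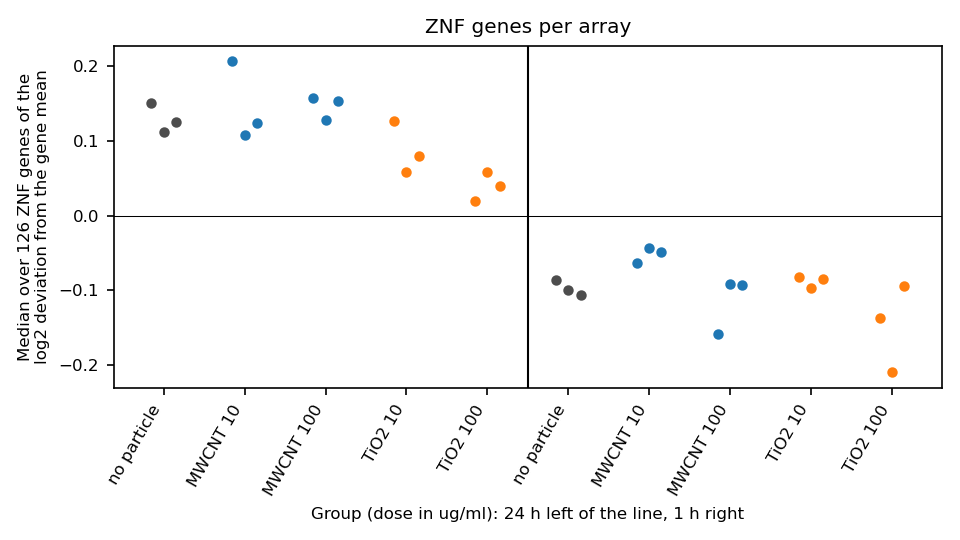
Median over the 126 ZNF genes of the log2 deviation from each gene's mean (vertical axis), 1 point per array, 3 arrays per group, colours by particle (grey none, blue MWCNT, orange TiO2). The 24 h arrays (left of the line) span 0.0198 to 0.207 and the 1 h arrays −0.210 to −0.0432. At 24 h the TiO2 arrays at 100 ug/ml, from 0.0198 to 0.0578, sit below the unexposed arrays, from 0.112 to 0.151.

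Members on chromosome 19 were set beside the others. Between 1 and 24 h without particles 28 of 50 rose and 2 fell, with a median of 0.34. Of the 76 others 39 rose and 9 fell, with a median of 0.19. Both shares of risers lay near that of the whole family, while 19.3% of all genes rose and 12.4% fell. A difference between the 2 sets was not tested. With genes within 500 kb of each other joined, the largest run held 15 members from ZNF304 to ZNF446. In it 8 rose and 1 (ZNF274) fell, with a median of 0.23. The risers on chromosome 19 include ZNF606, in this run, and ZNF230, in the next. Both passed the brightness limit only through the 24 h arrays. A run of 10 (ZNF576, ZNF428, ZNF45, ZNF230, ZNF222, ZNF226, ZNF227, ZNF235, ZNF112 and ZNF180) had 7 that rose and 0 that fell, with a median of 0.69.

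Zinc finger genes with other names and a mean above 7.18 also rose more often than they fell. Whether any of them passed that limit only through the 24 h arrays was not checked. Of 15 ZBTB genes, which pair fingers with a BTB domain, 10 rose and 2 fell. Of 7 ZSCAN genes 6 rose and 0 fell, of 4 ZKSCAN genes 4 rose, and of 4 ZFP genes 2 rose and 1 fell. Of the listed KRAB silencing partners 23 were measured. In unexposed cultures 10 of the 23 rose between 1 and 24 h and 0 fell, with a median of 0.12. Of all genes 19.3% rose and 12.4% fell, and both shares were higher among genes above 7.18. TRIM28 was not among the 10, while SETDB1 was (0.19 ± 0.06). SUV39H2, a histone H3 lysine methyltransferase, rose by 0.81 ± 0.20, and DNMT3B, a DNA methyltransferase, by 0.33 ± 0.06. TASOR, the scaffold of the HUSH silencing complex, rose by 0.33 ± 0.08, and TRIM24, a bromodomain relative of TRIM28, by 0.31 ± 0.08.

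At 1 h the particles moved a small set of these genes, all of them upwards. With TiO2 at 100 ug/ml 8 rose and 0 fell (all genes 1.74% and 0.385%, 2.12% together), and at 10 ug/ml 7 rose and 0 fell (0.702% and 0.00836%, 0.711% together). With MWCNT at 100 ug/ml 4 rose and 0 fell (1.26% and 0.435%, 1.7% together). With MWCNT at 10 ug/ml limma called 0 members (0.0669% of all genes, 0.0418% higher and 0.0251% lower). At an unadjusted limma p under 0.05 there were 29. The share of all genes at that threshold is not given here, so this count is not read as a trait of the family. The median member change was −0.06, −0.02, −0.03 and 0.07 in the same order, against −0.03, −0.02, −0.02 and −0.02 in all genes. All 4 comparisons share the same 3 unexposed arrays, so their values are given side by side and not as separate support.

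ZNF281, a zinc finger protein of GC-rich promoters tied to epithelial-mesenchymal transition, gave the firmest of these calls. It read 8.67, 8.74 and 9.02 in unexposed cultures, 9.21, 9.18 and 9.35 with MWCNT at 10 ug/ml, and 9.70, 9.83 and 9.99 at 100 ug/ml. With TiO2 it read 9.41, 9.36 and 9.44 at 10 ug/ml, and 9.86, 9.76 and 10.10 at 100 ug/ml. Every exposed array was above every unexposed one, and both 100 ug/ml groups were above both 10 ug/ml groups. Of all genes, 4.55% lay wholly above the controls with TiO2 at 100 ug/ml and 6.23% at 10 ug/ml. With MWCNT these shares were 6.37% at 100 ug/ml and 9.31% at 10 ug/ml. At 100 ug/ml ZNF281 rose by 1.10 ± 0.13 with TiO2 (limma adjusted p = 4.17e-06) and by 1.03 ± 0.13 with MWCNT (limma adjusted p = 8.81e-06). Both calls held in all 11 alternatives. At the lower dose it rose by 0.60 ± 0.13 with TiO2, while MWCNT gave 0.44 ± 0.13, which did not pass (limma adjusted p = 0.24).

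ZNF148, a close relative of ZNF281, read 6.83, 7.01 and 7.12 in unexposed cultures, 7.90, 7.89 and 7.91 with TiO2 at 10 ug/ml, and 8.06, 7.80 and 8.35 at 100 ug/ml. It rose by 0.92 ± 0.15 and 1.08 ± 0.15 at those doses, and its other probe set gave 1.12 and 1.31. With MWCNT it read 7.34, 7.30 and 7.55 at 10 ug/ml and 7.29, 7.44 and 7.75 at 100 ug/ml. Both MWCNT groups lay above the unexposed one, as did 9.31% and 6.37% of all genes, and neither passed (0.41 and 0.51). ZNF12 read 6.56, 6.52 and 7.23 in unexposed cultures, 8.07, 8.09 and 8.30 with TiO2 at 10 ug/ml, and 8.24, 7.81 and 8.38 at 100 ug/ml. It rose by 1.38 ± 0.25 and 1.37 ± 0.25, and by 1.01 ± 0.25 with MWCNT at 100 ug/ml.

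The KRAB genes ZNF562, ZNF430 and ZNF331 rose with TiO2 as well. ZNF562 rose by 0.81 ± 0.15 at 10 ug/ml and 0.89 ± 0.15 at 100 ug/ml, and by 0.65 ± 0.15 with MWCNT at 100 ug/ml. ZNF430 rose by 0.75 and 0.77 with TiO2 and by 0.61 with MWCNT at 100 ug/ml (each ± 0.16), the last with overlapping groups. ZNF331, an imprinted gene, rose by 0.53 ± 0.10 and 0.60 ± 0.10 with TiO2. ZNF3 rose by 0.41 ± 0.09 at both TiO2 doses. ZNF91 rose by 0.96 ± 0.25 with TiO2 at 100 ug/ml. At 10 ug/ml it was higher by 0.89 ± 0.25, with all exposed arrays above all unexposed ones, and did not pass (limma adjusted p = 0.134), and the doses differed by 0.07 (unadjusted p = 0.777). With MWCNT at 10 ug/ml ZNF430 had the smallest p (0.61 ± 0.16, limma adjusted p = 0.21).

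**Figure D4:**
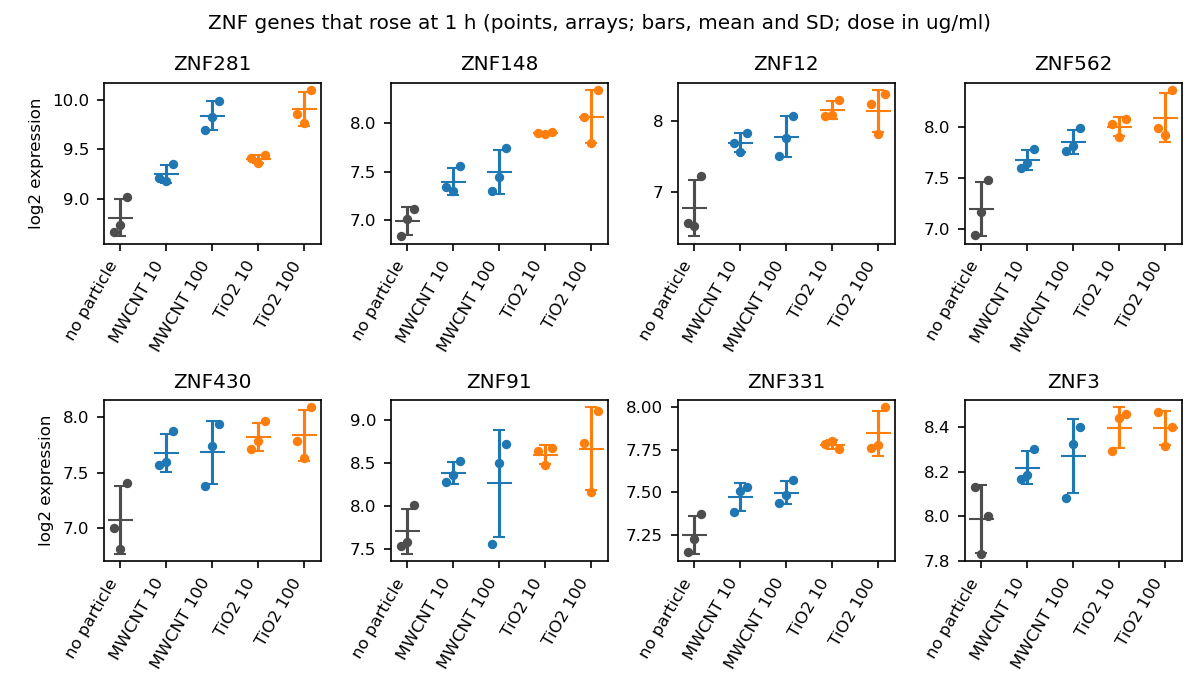
Log2 expression of the 8 ZNF genes that rose at 1 h with TiO2 at 100 ug/ml, with 1 panel per gene and its own vertical scale. Points are arrays, bars the mean and SD of 3 arrays, and groups run from no particle through MWCNT at 10 and 100 ug/ml to TiO2 at 10 and 100 ug/ml. In ZNF281 all 12 exposed arrays lie above the 3 unexposed ones, and the spread within a group is widest in ZNF91.

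Several of these calls rested on few arrays. Without replicate 2 of the 1 h controls 5 members passed with TiO2 at 100 ug/ml. With TiO2 at 10 ug/ml 1 passed without control replicate 1, 1 without control replicate 2, 2 without exposed replicate 1 and 3 without exposed replicate 3. With MWCNT at 100 ug/ml 2 and 1 passed without control replicates 1 and 2, and 1 each without exposed replicates 2 and 3. Fitted on the compared groups alone, 5, 4 and 1 passed in the same order. The Alu control probe set, which reads transcripts holding that repeat, read 14.25 to 14.31 with TiO2 at 100 ug/ml, 14.32 to 14.35 with TiO2 at 10 ug/ml, and 14.33 to 14.37 with MWCNT at 100 ug/ml. In unexposed cultures at 1 h it read 14.18 to 14.26. Its part in the result was not tested.

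Other probe sets did not always go the same way. Of the members called with time in unexposed cultures, 16 had other sets above 7.18. In 14 of them the median of those sets had the same sign. With MWCNT this held in 14 of 15 at 10 ug/ml and 15 of 15 at 100 ug/ml. With TiO2 it held in 12 of 13 at 10 ug/ml and 10 of 12 at 100 ug/ml. ZNF24 shows such a difference between sets at 1 h. Its tested set was higher at 1 h by 0.50 with TiO2 at 100 ug/ml and by 0.51 at 10 ug/ml, without passing, while its other sets gave −0.08 and 0.02 at 100 ug/ml and −0.01 and 0.07 at 10 ug/ml. The tested set read 8.98, 9.97 and 10.11 in unexposed cultures at 24 h, again with replicate 1 far below.

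At 24 h TiO2 lowered part of the family. At 100 ug/ml 22 members fell and 2 rose, where 8.89% of all genes fell and 4.3% rose (13.2% together), and 13.5% and 2.8% of the genes above the same brightness limit. The share of members that fell (17.5%) is thus above that of all genes and nearer to that of bright genes. The median change was −0.09 in the family, −0.03 in all genes and −0.07 in the bright ones. With TiO2 at 10 ug/ml 7 fell and 2 rose (3.5% and 2.55% of all genes, 6.05% together). With MWCNT limma called 0 members at 10 and at 100 ug/ml, and 0 genes of all 11963 (0%). At an unadjusted limma p under 0.05 there were 5 and 9 members, given without the share of all genes at that threshold. All 4 comparisons share the 3 unexposed arrays at 24 h.

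ZNF202, a repressor with SCAN and KRAB domains known from lipid metabolism genes, read 8.08, 8.18 and 8.003 with TiO2 at 100 ug/ml, against 8.53, 8.41 and 8.37 in unexposed cultures. The groups did not overlap, but 44 members and 20% of all genes lay wholly below the controls at this dose. ZNF202 fell by 0.35 (SE 0.05, limma adjusted p = 0.000363). At the lower dose it read 8.28, 8.26 and 8.13 and fell by 0.21. ZNF227 read 7.86, 7.90 and 7.71 with TiO2 at 100 ug/ml and 7.84, 7.88 and 7.73 at 10 ug/ml, against 8.20, 8.08 and 8.26 in unexposed cultures. It fell by 0.35 and 0.36, and both TiO2 groups lay wholly below the controls and above the 1 h arrays of ZNF227. At 10 ug/ml 36 members and 15.5% of all genes lay wholly below the controls. ZNF235, in the same chromosome 19 run, fell by 0.36 and 0.33.

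At 100 ug/ml ZNF606 fell by 0.33, ZNF133 by 0.31, ZNF248 by 0.31, ZNF175 by 0.30, ZNF205 by 0.30, ZNF473 by 0.25 and ZNF185 by 0.24. ZNF175 is a KRAB protein known for repressing the HIV promoter. The other 12 that fell did so by 0.17 to 0.22. The KRAB gene ZNF552 rose by 0.30 ± 0.09, with overlapping groups (0.16 without control replicate 2, not passing), and ZNF236 by 0.26 ± 0.07. At 10 ug/ml ZNF175, ZNF322, ZNF35 and ZNF544 fell too, by 0.30, 0.32, 0.24 and 0.22. ZNF721 rose there by 0.44 ± 0.11 and ZNF160 by 0.36 ± 0.11. ZNF721 read 9.77, 9.74 and 9.71 with TiO2 at 10 ug/ml, against 8.97, 9.47 and 9.45 in unexposed cultures, whose replicate 1 was the low one. Without it the change was 0.28 and did not pass (limma adjusted p = 0.131).

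**Figure D5:**
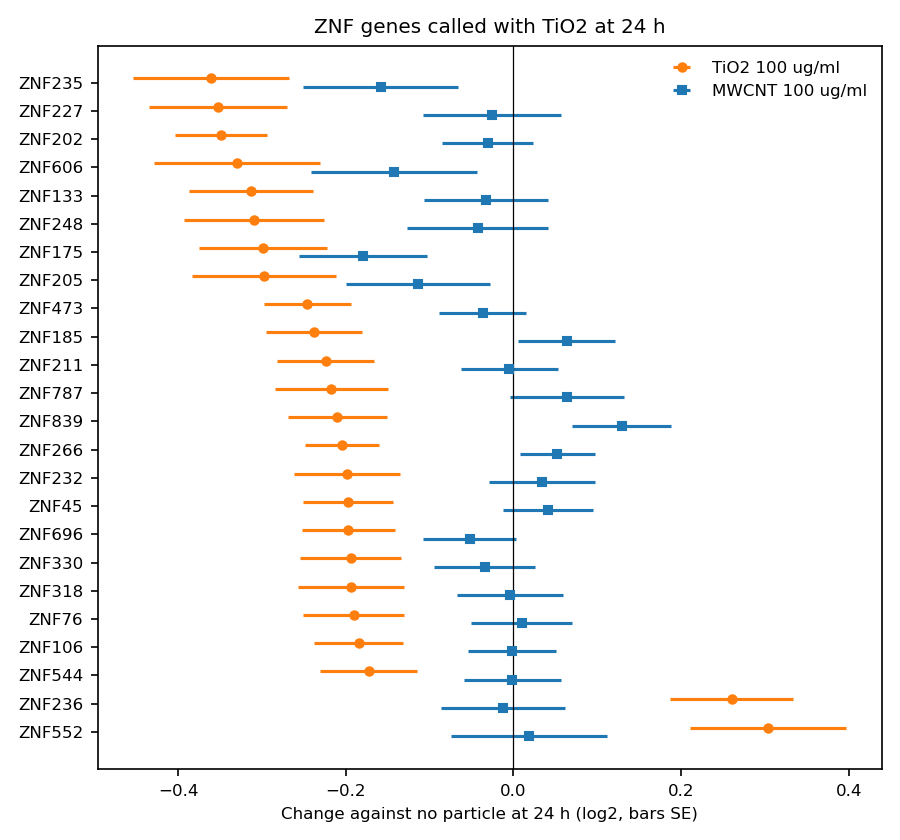
Change against unexposed cultures at 24 h (log2, horizontal axis, bars SE) of the 24 ZNF genes called with TiO2 at 100 ug/ml, for TiO2 (orange circles) and MWCNT (blue squares) at 100 ug/ml, 3 arrays per group. With TiO2 22 genes lie left of zero and 2 right of it, while none of the MWCNT changes passed. Both sets of changes use the same unexposed arrays.

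These 24 h counts depended on single arrays and on the fit. With TiO2 at 100 ug/ml 10 members passed without control replicate 1, and 10, 15 and 5 without exposed replicates 1, 2 and 3. At 10 ug/ml 0, 15 and 14 passed without control replicates 1, 2 and 3, and 2 and 0 without exposed replicates 1 and 3. Fitted on the compared groups alone 0 passed at either dose, and after cyclic loess, a further scaling of the arrays to each other, 5 fell and 2 rose at 100 ug/ml and 1 fell and 2 rose at 10 ug/ml. Of the silencing partners MORC2, an ATPase of the HUSH pathway, fell by 0.34 and CBX5 (HP1 alpha) by 0.26 with TiO2 at 100 ug/ml, and 0 rose of the 23. The 2 that fell are 8.7% of the list, close to the 8.89% of all genes that fell.

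With MWCNT at 10 ug/ml ZNF24 had the smallest p at 24 h (0.45 ± 0.17, limma adjusted p = 0.999, and 0.10 without replicate 1 of the controls), and at 100 ug/ml ZNF148 (0.46 ± 0.15, limma adjusted p = 0.88). ZNF148 read 8.55, 8.61 and 8.64 with MWCNT at 100 ug/ml, against 7.61, 8.32 and 8.49 in unexposed cultures. All exposed arrays were above all unexposed ones, as in 8 members and 4.02% of all genes. Of the unexposed arrays replicate 1 was far the lowest. Without that replicate the change was 0.19.

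The particles were also set against each other without the controls. At 100 ug/ml and 24 h 17 members were higher and 2 lower with MWCNT than with TiO2, where 7.7% and 4.55% of all genes (12.2% together) and 12.2% and 3.19% of the bright genes were. ZNF839 read 7.67 ± 0.03 with MWCNT and 7.33 ± 0.04 with TiO2 (SD, n = 3 each), a difference of 0.34 ± 0.06 (limma adjusted p = 0.000885). ZNF227 differed by 0.33 ± 0.08, ZNF202 by 0.32 ± 0.05, ZNF185 by 0.30 ± 0.06, ZNF787 by 0.28 ± 0.07, ZNF133 by 0.28 ± 0.07, ZNF248 by 0.27 ± 0.08, ZNF573 by 0.26 ± 0.08, ZNF266 by 0.26 ± 0.04 and ZNF45 by 0.24 ± 0.05. ZNF552 (−0.29 ± 0.09) and ZNF236 (−0.27 ± 0.07) were the 2 that were lower with MWCNT. MORC2 and CBX5 were higher with MWCNT, by 0.28 ± 0.07 and 0.30 ± 0.08. The count was 7 without MWCNT replicate 3, and 11 and 10 without TiO2 replicates 1 and 3. After cyclic loess 6 were higher and 2 lower.

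At 10 ug/ml and 24 h 5 members were higher and 1 lower with MWCNT than with TiO2 (2.05% and 2.83% of all genes, 4.88% together). ZNF227 (0.29 ± 0.08), ZNF134 (0.26 ± 0.07), ZNF318 (0.23 ± 0.06), ZNF544 (0.22 ± 0.06) and ZNF696 (0.19 ± 0.06) were the higher ones, and ZNF747 (−0.24 ± 0.07) the lower one. These calls were fragile: 0 remained without MWCNT replicate 1 or 3 or TiO2 replicate 1 or 3, and 1 without TiO2 replicate 2. At 1 h 0 members passed between the particles at either dose by limma (0.0167% of all genes at 100 ug/ml and 0.00836% at 10 ug/ml). At an unadjusted limma p under 0.05 there were 12 and 25, again without the share of all genes at that threshold. ZNF148 had the smallest p at 100 ug/ml (−0.57 ± 0.15, limma adjusted p = 0.34) and ZNF175 at 10 ug/ml (0.28 ± 0.08, limma adjusted p = 0.30).

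Between doses few members passed. With MWCNT at 1 h ZNF281 was higher at 100 than at 10 ug/ml by 0.59 ± 0.13 (limma adjusted p = 0.0192), and ZNF350, a partner of BRCA1, was lower by 0.42 (limma adjusted p = 0.0277), where 0.56% and 0.0752% of all genes passed (0.635% together). ZNF350 read 7.01, 7.26 and 7.41 at 100 ug/ml, against 7.56, 7.62 and 7.78 at 10 ug/ml. Its 2 groups did not overlap, but 31 members and 6.96% of all genes lay wholly lower at 100 than at 10 ug/ml. Of these 2 calls 0 or 1 remained when any 1 of the 6 arrays was left out. With TiO2 at 1 h limma called 0 (0.293% of all genes, 0.0251% lower), with ZNF281 nearest (0.50 ± 0.13, limma adjusted p = 0.12). With MWCNT at 24 h limma called 0 (0%), with ZNF671 nearest (−0.12 ± 0.06). With TiO2 at 24 h ZNF76, a relative of ZNF143, was lower at 100 than at 10 ug/ml by 0.25 (limma adjusted p = 0.0466, 0.318% of all genes), a call lost when any 1 of the 6 arrays was left out.

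The effect of a particle at 24 h was compared with that at 1 h. For MWCNT at 100 ug/ml 1 member passed (0.669% of all genes), ZNF281, whose change against controls was 0.20 ± 0.13 at 24 h and 1.03 ± 0.13 at 1 h. For TiO2 at 100 ug/ml 2 passed (2.2%). ZNF281 changed by 0.21 at 24 h and by 1.10 at 1 h, and ZNF552 by 0.30 ± 0.09 at 24 h and by −0.33 ± 0.09 at 1 h, the last short of the threshold (limma adjusted p = 0.0668). At 24 h ZNF281 read 8.69, 8.69 and 8.60 with TiO2 at 100 ug/ml and 8.69, 8.62 and 8.65 with MWCNT, against 8.005, 8.63 and 8.72 in unexposed cultures. All exposed arrays lay within the range of the unexposed ones. Without replicate 1 of these controls the 24 h differences of ZNF281 were −0.02 (MWCNT) and −0.01 (TiO2), neither of which passed. At 10 ug/ml limma called 0 for MWCNT (0%) and 0 for TiO2 (0.0167%). Without replicate 1 of the 24 h controls 8 members passed for TiO2 at 100 ug/ml and 6 at 10 ug/ml, and 1 at 10 ug/ml without replicate 3. The MWCNT call of ZNF281 at 100 ug/ml was lost without any 1 of 7 arrays: replicates 1 and 2 of the 1 h controls, replicates 2 and 3 of the 24 h controls, exposed replicate 3 at 1 h, and exposed replicates 2 and 3 at 24 h.

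The genes most like these members over the 10 group means, as a description with no test, differed between them. For ZNF281 they were KLF7, a transcription factor (r = 0.994), TAGLN, an actin-binding protein (0.986), and ANKRD1, a stretch-induced nuclear protein (0.981). For ZNF12 they were THOC2, of the mRNA export complex (0.995), DYNC1LI2, a dynein chain (0.994), and RAB11FIP2 (0.992). For ZNF606 they were DNMBP (0.999), SCYL3 (0.998) and THEMIS2 (0.997), and for ZNF227 DCLRE1A, a DNA crosslink repair nuclease (0.995), HLTF (0.995) and TFB1M (0.994). Within groups the members moved only weakly together: the mean correlation of their deviations over arrays was 0.0762, against 0.00941 for all genes.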

How the data were processed

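Total RNA of 30 cultures (10 groups of 3) was hybridised to 1-colour Affymetrix arrays. The deposited values are log2 expression per probe set, made by the authors with RMA per the submitters' processing notes (version not given there). The table held 22277 probe sets, 62 of them array controls. No further scaling and no pseudocount was applied, and raw intensities were not used here. Per gene with 1 platform symbol, the probe set of highest mean was tested. Limma 3.58.1 (R 4.3.3) fitted 1 mean per group, and p-values were adjusted over 11963 genes (threshold 0.05). The fit was tested on simulated data.

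Members and lists were chosen with earlier results of these data known. The rule named up to 12 called members per comparison by size of change, otherwise that with the smallest p, the 8 brightest, the 5 most variable, 3 on each side of the limit, and up to 4 called silencing partners. Other names were picked after their values were seen, as was the 24 h against 1 h comparison of exposed cultures. No protein table was used, so KRAB and finger counts were not tabulated. Alternatives were a filter on dim genes, cyclic loess, the replicate number as a block, array weights, the compared groups alone and leaving out each array. Python 3.11.15, pandas 2.3.3, numpy 2.4.6, matplotlib 3.10.9 and statmod 1.5.0 were also used.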

Additional observations from a re-analysis of the deposited data

Results flagged for a closer look

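In 3 cases a particle's effect on a member differed between 24 h and 1 h by the test of that difference. ZNF281 had a smaller change at 24 h than at 1 h with MWCNT at 100 ug/ml (difference −0.829, limma adjusted p = 0.0201) and with TiO2 at 100 ug/ml (−0.889, limma adjusted p = 0.0074). The effects at 1 h were 1.03 and 1.10. Those at 24 h (0.20 and 0.21) did not pass, and without replicate 1 of the 24 h controls they were −0.02 and −0.01. ZNF552 had a higher change at 24 h than at 1 h with TiO2 at 100 ug/ml (0.636, limma adjusted p = 0.00955). All 3 rest on the same 6 unexposed arrays, and fitted on the compared groups alone none passed.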

How the results depend on the processing

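The changes of ZNF281 at 24 h against controls, which did not pass, turned sign in 2 alternatives each: with MWCNT at 100 ug/ml (0.20) it was −0.030 with array weights and −0.021 to 0.34 over the arrays left out, and with TiO2 (0.21) −0.0024 and −0.015 to 0.34. The fall of ZNF281 with time in unexposed cultures did not pass with array weights (−0.19) or on the compared groups alone. No other result followed changed direction under the alternatives run. The change with time was the steadiest, counting members that passed in either direction. Without any 1 array 71 to 77 members passed in unexposed cultures (78 with all). With MWCNT 56 to 69 passed at 10 ug/ml (68) and 72 to 81 at 100 ug/ml (84). With TiO2 62 to 69 passed at 10 ug/ml (70) and 58 to 73 at 100 ug/ml (69). Leaving out 1 array at a time gave 5 to 9 members at 1 h with TiO2 at 100 ug/ml (8), 1 to 7 at 10 ug/ml (7) and 1 to 5 with MWCNT at 100 ug/ml (4). At 24 h it gave 5 to 24 with TiO2 at 100 ug/ml (24) and 0 to 15 at 10 ug/ml (9). Between particles at 24 h it gave 7 to 14 at 100 ug/ml (19) and 0 to 8 at 10 ug/ml (6). Between doses it gave 0 to 1 with MWCNT at 1 h (2) and 0 with TiO2 at 24 h (1). For the difference between times it gave 0 to 1 with MWCNT at 100 ug/ml (1), and 2 to 8 and 0 to 6 with TiO2 at 100 (2) and 10 ug/ml (0).

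With a filter on dim genes 8 members passed at 1 h with MWCNT at 100 ug/ml, 4 between the MWCNT doses at 1 h and 1 in the time difference of TiO2 at 10 ug/ml. After cyclic loess, which moved the median of all genes by −0.0028, 7 passed with TiO2 at 100 ug/ml at 24 h, 3 at 10 ug/ml, 8 between particles at 100 ug/ml and 24 h, 2 at 10 ug/ml, and 0 between TiO2 doses at 24 h. With array weights 9 passed at 1 h with MWCNT at 100 ug/ml, 3 at 24 h, and 27 with TiO2 at 10 ug/ml at 24 h. Between particles they gave 11 at 10 ug/ml and 1 h, 37 at 100 ug/ml and 24 h, and 16 at 10 ug/ml and 24 h, and between doses at 1 h 4 with MWCNT and 1 with TiO2. The time differences came to 5 for MWCNT at 100 ug/ml, and 11 and 9 for TiO2 at 100 and 10 ug/ml. Fitted on the compared groups alone, 1 passed at 1 h with MWCNT at 100 ug/ml, and 5 and 4 with TiO2 at 100 and 10 ug/ml. In that fit 0 passed at 24 h with TiO2 at either dose, between particles at 10 ug/ml and 24 h, between MWCNT doses at 1 h, between TiO2 doses at 24 h, and in the time differences at 100 ug/ml. The causes of these shifts were not tested. The replicate numbers did not pair the samples (correlations of same-numbered arrays −0.248 to 0.33). With the replicate block 0 members passed between the TiO2 doses at 24 h, in place of 1, and no other count moved by over 1.5 times. With 3 arrays a group, the number of arrays limits the precision.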
